A study of Mus musculus with 4 samples.

Results

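The trophectoderm and placenta genes are 31 mouse genes of the early trophoblast lineage and of the placenta, out of 20284 genes that could be named on the array. They were chosen by name, but with earlier results of these data known. The list holds transcription factors, keratins, junction and surface proteins, signalling molecules, homeobox genes of the X-linked Rhox cluster, and hormones and fusion proteins of differentiated placental cells. A probe was matched to 30 of them. Prl2c2 had no matched probe, and the parental spot of Rhox6 was marked as an outlier, so 29 genes have a value on all 4 arrays.

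RNA was measured on 1 array for each of 4 embryonic stem (ES) cell lines. Parental ES cells are the EB3 line. Nup98-HoxA9 ES clones #1 and #9 are EB3 derivatives carrying, on a Tol2 transposon, a FLAG-tagged fusion of the nucleoporin Nup98 with the C-terminal, homeodomain part of HoxA9, which arises by chromosomal translocation in leukemia. HoxA9-Ct ES is 1 EB3-derived clone expressing that HoxA9 part without Nup98, and all lines were grown on gelatin with LIF. The question for these genes was whether either transgene moved them from their level in parental ES cells. The Nup98-HoxA9 group holds 2 independent clones, while parental and HoxA9-Ct ES have 1 array each and are assumed to vary as the clones do, and a difference between clones can come from the clone itself.

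The trophectoderm is the outer epithelium of the blastocyst and gives rise to the placental trophoblast. In the embryo Tead4 and its partner Yap1, which Hippo signalling restrains, switch on Cdx2 and Gata3 in outer cells. A circuit of Cdx2, Elf5, Eomes, Tfap2c and Ets2 then maintains trophoblast stem cells under FGF signalling. Cytoskeletal keratins such as Krt8 and Krt18 mark this epithelium, although other simple epithelia, among them the primitive endoderm, express them as well. ES cells stand for the inner cell mass, do not normally form trophoblast, and are kept from it in part by Pou5f1 (Oct4).

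Promoters are shown for the genes described singly below for which RefSeq lists 1 start (Krt8, Krt7, Sct, Plet1 and Syna) and for Krt18, the filament partner of Krt8, since the results turn on these genes. RefSeq promoter windows (GRCm38.p6) matched 21 of the 31 genes, and each sequence covers the 250 bases before the start. The windows are chr15:102004343-102004592, - strand for Krt8, chr15:102027966-102028215, + strand for Krt18, chr15:101412153-101412402, + strand for Krt7, chr7:141279134-141279383, - strand for Sct, chr9:50494275-50494524, + strand for Plet1 and chr5:134560172-134560421, - strand for Syna.
Krt8: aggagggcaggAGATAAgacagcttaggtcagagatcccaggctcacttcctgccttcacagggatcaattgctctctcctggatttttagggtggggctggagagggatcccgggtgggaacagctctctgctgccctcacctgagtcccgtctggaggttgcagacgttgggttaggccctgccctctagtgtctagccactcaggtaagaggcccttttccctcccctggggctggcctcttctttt
Krt18: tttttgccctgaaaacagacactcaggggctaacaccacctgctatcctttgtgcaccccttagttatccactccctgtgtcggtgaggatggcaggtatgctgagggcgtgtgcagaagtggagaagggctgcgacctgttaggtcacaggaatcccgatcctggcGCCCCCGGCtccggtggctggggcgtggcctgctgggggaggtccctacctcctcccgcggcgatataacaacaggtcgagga
Krt7: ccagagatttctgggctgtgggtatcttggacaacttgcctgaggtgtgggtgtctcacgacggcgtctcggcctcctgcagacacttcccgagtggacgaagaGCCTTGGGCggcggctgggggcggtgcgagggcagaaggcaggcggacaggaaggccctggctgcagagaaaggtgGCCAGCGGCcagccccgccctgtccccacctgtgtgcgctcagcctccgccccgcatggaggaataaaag
Sct: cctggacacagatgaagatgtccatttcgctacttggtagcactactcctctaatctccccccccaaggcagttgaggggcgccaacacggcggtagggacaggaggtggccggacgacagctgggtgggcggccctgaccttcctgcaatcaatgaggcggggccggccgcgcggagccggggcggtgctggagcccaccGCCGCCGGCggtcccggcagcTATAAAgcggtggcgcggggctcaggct
Plet1: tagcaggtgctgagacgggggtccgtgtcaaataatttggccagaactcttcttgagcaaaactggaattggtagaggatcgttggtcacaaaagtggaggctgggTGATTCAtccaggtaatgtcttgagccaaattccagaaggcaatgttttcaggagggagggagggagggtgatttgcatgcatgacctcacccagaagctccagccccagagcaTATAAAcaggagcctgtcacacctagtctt
Syna: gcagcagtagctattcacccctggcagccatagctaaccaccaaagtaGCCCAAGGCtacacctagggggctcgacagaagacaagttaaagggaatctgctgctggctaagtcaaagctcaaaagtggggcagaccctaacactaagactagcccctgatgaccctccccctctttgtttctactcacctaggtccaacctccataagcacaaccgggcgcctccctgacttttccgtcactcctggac
These run from 5′ to 3′ on the strand of the gene, and capitals mark matches to a motif. Motifs were searched on both strands of all 32851 listed promoter windows of the same length, and no match in the printed windows overlapped another. GCCNNNGGC, bound by the AP-2 factors Tfap2a and Tfap2c, lay in 4 of the 6 windows and in 13.7% of all windows: 83 bases before the start of Krt18, 146 and 70 before Krt7, 49 before Sct and 202 before Syna. TATAAA lay 28 bases before Sct and 30 before Plet1 (12.4% of all windows). The GATA factor motif, AGATAA, lay 239 bases before Krt8 (9.99% of all), and TGANTCA, an AP-1 motif, lay 144 bases before Plet1 (6.75% of all). GGAATG, a TEAD motif, was in none of the 6 and in 12.6% of all windows. The matches describe the letters in these windows and were not related to binding.

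Levels are given as the log2 of the spot signal relative to the 75th percentile of the array, so that 0 is the signal at that percentile. The 75th percentile of the processed signal ranged from 209 to 253 over the 4 arrays, 49.9% to 53.0% of spots were well above background, and the lowest signal called so lay between -4.62 and -4.23 on this scale. Among the 30 genes, 21 were well above background in all 4 lines, a share of 70.0% beside 61.9% of all named genes. Only Tpbpa, a spongiotrophoblast marker, was dim in every line, with levels from -6.67 to -6.29. In parental ES 22 genes were well above background, in HoxA9-Ct ES 23, in clone #1 25 and in clone #9 28. Of all 20284 named genes the numbers were 12993, 13059, 13178 and 13777 in the same order, also highest in clone #9. Signals of different probes cannot be ranked, and fewer expressing cells cannot be told apart from less RNA per cell in these bulk samples.

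**Figure D1:**
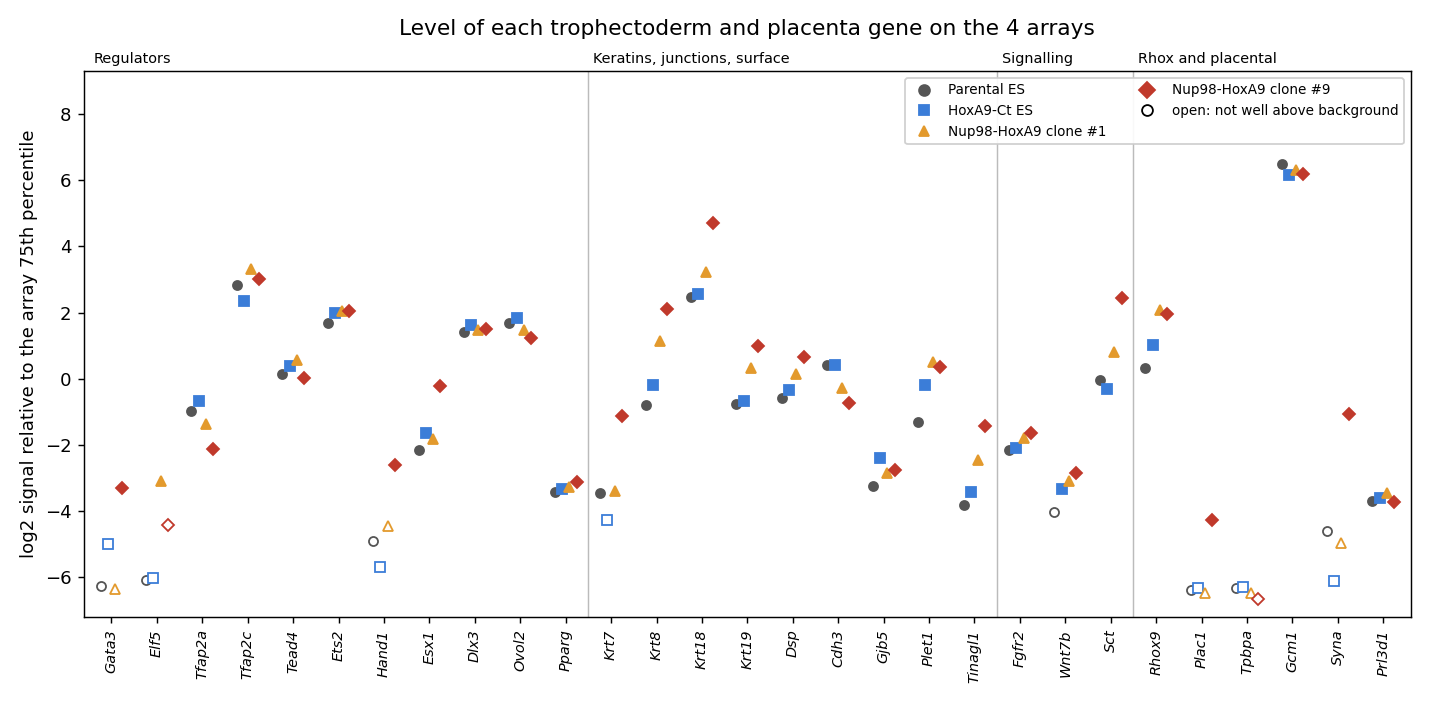
Level of 29 trophectoderm and placenta genes in each of the 4 ES cell lines (log2 signal relative to the 75th percentile of the array), grouped by role; each point is 1 array and open points are not well above background. Krt8, Krt18, Krt19 and Tinagl1 lie higher in both Nup98-HoxA9 clones than in parental and HoxA9-Ct ES, while Hand1 and Syna are well above background in clone #9 only.

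Across the list, differences over 2-fold to parental ES were more numerous in clone #9 than in clone #1, and few passed a test. With the Benjamini-Hochberg threshold of 0.05 across 55562 probes, limma called 2 members, Elf5 and Krt8, higher in the Nup98-HoxA9 clones than in parental cells (background 0.781% of all probes) and 0 lower (background 0.625%), with 13 members at an unadjusted p under 0.05 (6.26% of all probes). Against HoxA9-Ct ES, 5 members were higher (Elf5, Hand1, Krt7, Sct and Syna; background 0.673%) and 0 lower (0.688%), with 9 at an unadjusted p under 0.05 (6.55% of all probes). In HoxA9-Ct ES against parental ES, limma called 0 members higher (background 0.216%) and 0 lower (0.189%), with 2 at an unadjusted p under 0.05 (3.51% of all probes). These comparisons share arrays with each other. The standard error of a difference was 0.56 for the clones against either reference and 0.64 between the single arrays, all on the log2 scale.

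Counted by size alone and without a test, a gene could be compared with parental ES where at least 1 of the arrays was well above background. Of 24 genes compared in clone #1, 6 were more than 2-fold higher (2.76% of 13448 named genes compared in the same way) and 0 lower (2.74%). In clone #9 the numbers were 13 higher (7.42% of 13924 named genes) and 2 lower (2.48%) of 27. For HoxA9-Ct ES they were 1 higher (1.32% of 13292 named genes) and 0 lower (0.73%) of 23. Normexp background correction changed the higher counts to 3, 8 and 0. Some of these genes passed only because the line compared was bright, so the counts are a description. Among the 21 genes well above background in all lines, the median log2 difference to parental ES was 0.20 for HoxA9-Ct ES, 0.37 for clone #1 and 0.48 for clone #9, beside medians of 0.00, -0.01 and -0.06 over 12553 named genes. In the same order, 18, 17 and 15 of the 21 lay above 0, or 85.7%, 81.0% and 71.4%, beside 49.9%, 47.8% and 42.8% of all named genes. The parental array is common to these comparisons, so an error in its value moves every line of a gene the same way.

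**Figure D2:**
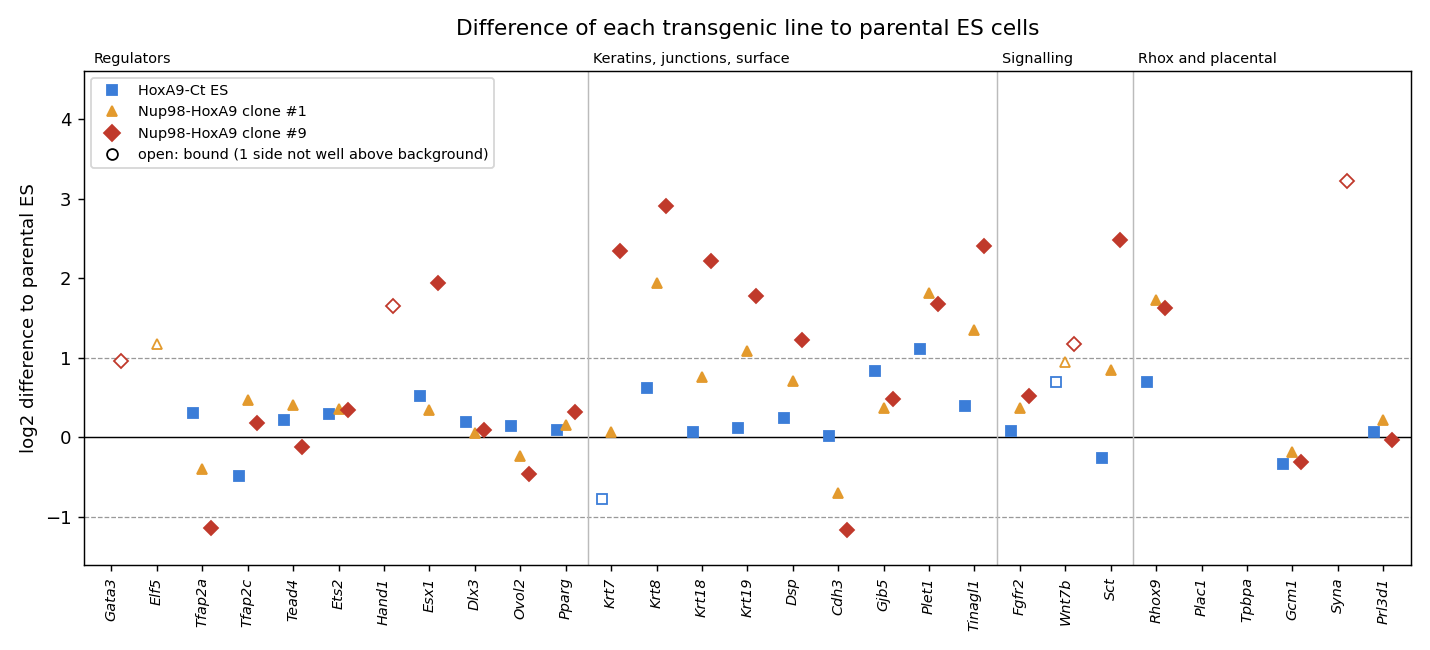
Log2 difference of HoxA9-Ct ES, clone #1 and clone #9 to parental ES for each gene, 1 point per array pair; dashed lines mark 2-fold, open points are bounds, and genes dim on both sides have no point. The keratins, Plet1, Tinagl1, Sct and Rhox9 hold most points above 2-fold, and Tfap2a and Cdh3 fall below it in clone #9.

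Among the simple-epithelium keratins, 1 of 4, Krt8, rose in the clones against parental ES by limma. Krt8, the type II keratin of trophectoderm, was at -0.81 in parental ES, -0.19 in HoxA9-Ct ES, 1.13 in clone #1 and 2.09 in clone #9. The clones did not overlap the other lines, and Krt8 was 3.84-fold and 7.47-fold above parental ES in clones #1 and #9. limma gave a log2 difference of 2.42 ± 0.56 (SE; adjusted p = 0.00210) to parental ES and of 1.80 (adjusted p = 0.0726) to HoxA9-Ct ES. This call was lost with quantile normalization (adjusted p = 0.579) and when the fit was limited to probes above background on at least 1 array (0.594), with log2 differences of 2.43 and 2.42, and it held under normexp (5.16e-14). With quantile normalization or that limit, 0 probes on the whole array passed against parental ES.

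Krt18, the partner with which Krt8 builds filaments, stood at 2.48 in parental ES, 2.55 in HoxA9-Ct ES, 3.23 in clone #1 and 4.70 in clone #9. Clone #9 was 4.66-fold above parental ES and 2.77-fold above clone #1, whereas clone #1 was 1.69-fold above parental ES (limma adjusted p = 0.257 for the clones together). Krt19, another trophectoderm keratin, was at -0.78, -0.66, 0.31 and 1.00 in the same order, or 2.13-fold and 3.43-fold above parental ES in clones #1 and #9 (adjusted p = 0.307). Its difference was a call under normexp (adjusted p = 3.58e-05), with the floor (0.0127) and with trend and robust (0.000334). HoxA9-Ct ES differed from parental ES by 0.07 for Krt18 and by 0.12 for Krt19.

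Krt7, a keratin of trophoblast and ductal epithelia, was at -3.46 in parental ES, -3.39 in clone #1 and -1.12 in clone #9, while the HoxA9-Ct array gave a dim signal (-4.27). Clone #9 was 5.06-fold above parental ES and 4.83-fold above clone #1, and clone #1 lay within 1.05-fold of parental ES. Against HoxA9-Ct ES the clones together were at least 3.93-fold higher by their mean (limma log2 difference 2.02, adjusted p = 0.0261), a call that rests on clone #9 and fell to 0.64 without passing under normexp. Krt7, Krt8 and Krt18 are on chromosome 15, and on that chromosome clone #9 had a median log2 difference to parental ES of 0.41 over 508 named genes, against -0.08 over 12045 genes elsewhere. In clone #1 these medians were 0.02 and -0.02. The part of this shift in the keratin values of clone #9 was not tested.

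Among 8 other keratins, none passed limma against parental ES, and Krt20 and Krt23, both on chromosome 11, passed against HoxA9-Ct ES (adjusted p = 0.0194 and 0.0116). Krt20, an intestinal keratin, was well above background in clone #9 only, at -2.63. Krt23 was at -3.40 in parental ES and -1.32 in clone #9, and it was dim in clone #1 and HoxA9-Ct ES. Both differences came from clone #9. The stratified-epithelium keratin Krt14 was at -3.32, -4.04, -3.35 and -2.87 in parental ES, clone #1, clone #9 and HoxA9-Ct ES.

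Of the regulators, only Elf5 and Hand1 were called, and both near the background limit. Elf5, the factor that sustains the trophoblast stem cell circuit, was well above background in clone #1 alone (-3.10), and was dim in clone #9 (-4.42), parental ES (-6.08) and HoxA9-Ct ES (-6.02). Clone #1 was at least 2.26-fold above parental ES and at least 2.20-fold above HoxA9-Ct ES. The limma differences of the clones were 2.33 to parental ES (adjusted p = 0.00393) and 2.27 to HoxA9-Ct ES (0.00597). Against the background limit of each reference, the mean of the clones was 1.43-fold and 1.39-fold higher. That mean takes clone #9 at its dim signal, so these folds are not bounds. Under normexp the limma difference to parental ES was 0.29 and under a floor at the background limit 0.52, neither past the threshold.

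Hand1, which drives giant cell differentiation, and Gata3, an early trophectoderm factor, had the opposite pattern between the clones. Hand1 was well above background in clone #9 alone (-2.62) and dim in parental ES (-4.91), clone #1 (-4.45) and HoxA9-Ct ES (-5.68). Clone #9 was at least 3.06-fold above HoxA9-Ct ES, and clone #1 has no fold because both sides were dim. The limma log2 difference of the clones to HoxA9-Ct ES was 2.14 (adjusted p = 0.0129), and 0.28 under normexp, where the call was lost. Gata3 was likewise above background in clone #9 alone, at -3.32, with -6.28 in parental ES, -6.36 in clone #1 and -4.99 in HoxA9-Ct ES (adjusted p = 0.292 to parental ES).

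Tfap2a, an AP-2 factor, ran the other way in clone #9, at -0.98 in parental ES, -0.67 in HoxA9-Ct ES, -1.37 in clone #1 and -2.12 in clone #9, so that clone #9 was 0.45 times parental ES. Its second probe was dim on every array. Tfap2c, the AP-2 factor of the trophoblast stem cell circuit, was at 2.84, 2.35, 3.31 and 3.02 in that order and differed from parental ES by at most 0.48. It was called higher in the clones than in HoxA9-Ct ES under normexp and with trend and robust, but not otherwise (log2 difference 0.81, adjusted p = 1.00). The homeobox gene Esx1, which is expressed in the placental labyrinth, was 3.85-fold above parental ES in clone #9 (-2.16 to -0.21) and 1.27-fold in clone #1 (adjusted p = 0.696). Tead4, Ets2, the homeobox gene Dlx3, the zinc finger gene Ovol2 and the nuclear receptor gene Pparg were well above background in all lines, and each differed from parental ES by less than 0.5 in every line.

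Several surface and junction genes were higher in both clones without passing the test at their brightest probe. Plet1, a surface protein of early trophoblast, was at -1.31 in parental ES, -0.20 in HoxA9-Ct ES, 0.50 in clone #1 and 0.36 in clone #9. Both clones were above HoxA9-Ct ES, which itself was 2.16-fold above parental ES and was the only member to pass 2-fold there (limma log2 difference of HoxA9-Ct ES 1.11 ± 0.64, SE, unadjusted p = 0.0829, adjusted p = 1.00). The log2 difference of the clones to parental ES was 1.75 (limma adjusted p = 0.0945), and 1.31 with a call under normexp. A second Plet1 probe gave -3.76, -3.12, -3.58 and -3.74 in parental ES, clone #1, clone #9 and HoxA9-Ct ES, a smaller difference.

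Tinagl1, a secreted matrix protein of trophoblast and of other basement membranes, was at -3.82 in parental ES, -3.43 in HoxA9-Ct ES, -2.47 in clone #1 and -1.42 in clone #9. The clones were 2.56-fold and 5.29-fold above parental ES (limma adjusted p = 0.0512). The log2 difference of 1.88 became 0.71 under normexp, and it was a call with a floor at the background limit (adjusted p = 0.000128) and with trend and robust (0.00457). To HoxA9-Ct ES the limma log2 difference was 1.49 (adjusted p = 0.251). Its other probe, dim in parental and HoxA9-Ct ES, was at -3.59 and -2.29 in clones #1 and #9, the same order. At that probe limma called the clones higher than HoxA9-Ct ES (log2 difference 1.97, adjusted p = 0.0330). It did not call them higher than parental ES there (1.80, adjusted p = 0.0739). Dsp, the desmosome linker that ties keratin filaments to junctions, was read from 10 spots and was at -0.58, 0.13, 0.64 and -0.33 in parental ES, clone #1, clone #9 and HoxA9-Ct ES, with an SD between spots of 0.03 to 0.10. Clone #9 was 2.33-fold and clone #1 1.64-fold above parental ES. The spots are repeats on 1 array, so their SD does not measure the spread between clones or cultures. The limma log2 difference to parental ES, 0.965 ± 0.556 (SE; unadjusted p = 0.0827), did not pass. Its error is 1 value shared by all probes. A second Dsp probe was dim in all lines.

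Cdh3, the P-cadherin of trophoblast, was lower in the clones, at 0.41 in parental ES, 0.42 in HoxA9-Ct ES, -0.29 in clone #1 and -0.75 in clone #9, and the clones were 0.61 and 0.45 times parental ES (adjusted p = 1.00). Gjb5, a placental gap junction protein, was at -3.23, -2.86, -2.75 and -2.40 in parental ES, clone #1, clone #9 and HoxA9-Ct ES, highest in HoxA9-Ct ES. In a list of 15 epithelial adhesion genes, 0 passed limma in either direction against either reference, with 2 at an unadjusted p under 0.05 for each. Their median difference to parental ES was -0.56 in clone #1 and -0.72 in clone #9 over the 12 well above background in all lines. Cdh1 (E-cadherin) was at 3.37 in parental ES, 3.20 in HoxA9-Ct ES, 3.02 in clone #1 and 2.62 in clone #9. The claudin gene Cldn6 had the lowest values relative to parental ES (-0.33 against -1.94 and -2.10 in the clones; adjusted p = 0.125).

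Of the signalling molecules, Sct, which encodes the peptide hormone secretin, was called. It was at -0.04 in parental ES, -0.30 in HoxA9-Ct ES, 0.81 in clone #1 and 2.44 in clone #9. Clone #9 was 5.59-fold and clone #1 1.80-fold above parental ES, and clone #9 was 3.11-fold above clone #1. limma gave a log2 difference of 1.93 to HoxA9-Ct ES (adjusted p = 0.0410) and of 1.67 to parental ES (0.134). The first call was lost when outlier spots were kept, with quantile normalization, with the filter on probes above background and with trend and robust on, while the second became a call under normexp. Quantile normalization and the filter each left 0 probes called on the whole array.

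Wnt7b, a Wnt ligand needed for chorion fusion and a chromosome 15 gene, was dim in parental ES (-4.03) and at -3.34 in HoxA9-Ct ES, -3.08 in clone #1 and -2.86 in clone #9, at least 1.61, 1.93 and 2.26 times parental ES. Fgfr2, the FGF receptor through which FGF4 maintains trophoblast stem cells, was at -2.16 in parental ES and at most 1.44-fold higher in any line. A second Fgfr2 probe, read from 10 spots, was dim in all lines, with levels from -6.27 to -4.87. Among 11 other FGF pathway genes, all well above background in all 4 lines, 0 passed limma in any comparison. Fgf4, the ligand, ranged from 5.92 in HoxA9-Ct ES to 6.07 in parental ES. Fgfr3 was highest in clone #9, at 0.48 against -1.69 in parental ES and -0.63 in clone #1 (adjusted p = 0.166).

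The X-linked Rhox homeobox genes, expressed in placenta and germ line, differed among themselves. Rhox9 was at 0.33 in parental ES, 1.02 in HoxA9-Ct ES, 2.07 in clone #1 and 1.96 in clone #9, so that both clones were higher, 3.32-fold and 3.08-fold above parental ES, with almost the same value in each. Its limma difference of 1.68 did not pass (adjusted p = 0.128), and it passed under normexp, a floor at the background limit, and trend and robust. Rhox6 has no test. With its marked parental spot kept it was at 2.64 in parental ES, 0.53 in HoxA9-Ct ES, 1.51 in clone #1 and 1.53 in clone #9, highest on the array where the spot was marked.

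Among 10 other Rhox genes, 8 had a matched probe and 1 was called. Rhox5, the founding member of the cluster, was at 4.99 in parental ES, 4.88 in HoxA9-Ct ES, 7.06 in clone #1 and 7.49 in clone #9. The clones rose 4.21-fold and 5.68-fold over parental ES (limma adjusted p = 0.00503) and differed from HoxA9-Ct ES as well (0.00267). Rhox8 differed from parental ES by less than 0.5 in all lines, and Rhox11 and Rhox12 were dim throughout. Near-identical members of this family may share probes.

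Markers of differentiated placental cells stayed at or near background, with Syna and Gcm1 as the exceptions. Syna encodes syncytin A, the envelope-derived protein that fuses trophoblast cells into syncytium, and was at -1.06 in clone #9. It was dim in clone #1 (-4.96), parental ES (-4.62) and HoxA9-Ct ES (-6.11). Clone #9 was at least 9.28-fold above parental ES and at least 10.3-fold above clone #1, and limma called the clones higher than HoxA9-Ct ES (log2 difference 3.10, adjusted p = 1.03e-05) but not higher than parental ES (1.60, adjusted p = 0.171). This call rests on clone #9 and was lost under normexp (0.52), quantile normalization, the filter on probes above background, and trend and robust. Under quantile normalization or the filter, 0 probes on the whole array passed against HoxA9-Ct ES.

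The Syna and Krt8 probes sit among the final eighth of spot rows on the array, which hold 12.3% of single-spot probes. That region holds 36.7% of the 60 single-spot probes that were over 8-fold higher in clone #9 than on every other array, beside 62.5% of 64 for clone #1, 81.6% of 38 for parental ES and 17 of 34 for HoxA9-Ct ES. Of the probes called higher in the Nup98-HoxA9 clones, it holds 18.8% of 431 against parental cells and 24.3% of 370 against HoxA9-Ct cells. Its part in the Syna and Krt8 values was not tested.

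Gcm1, the factor for labyrinth syncytiotrophoblast, was at 6.51, 6.33, 6.20 and 6.17 in parental ES, clone #1, clone #9 and HoxA9-Ct ES at its leading probe, without a difference over 0.34 there. Of its other probes, 1 was dim in all lines (-6.11 in parental ES). The other 2 were well above background in all lines, at 6.25 and 1.66 in parental ES. Their log2 differences of clone #9 to parental ES were -0.72 and 0.41. The probes thus disagree on the level of Gcm1. Plac1, a placental gene on the X chromosome, was above background in clone #9 alone (-4.29), too near the limit for a fold. Prl3d1 (placental lactogen I) was at -3.69, -3.47, -3.72 and -3.62 in the same order at 1 probe and dim at its second, and its near-identical paralogs could share these signals.

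The related prolactin and cathepsin families lay almost wholly at background. Of 20 other prolactin family genes 18 had a probe, and 17 of these were dim in every line. Prl3b1 (placental lactogen II) was the exception, with levels from -3.16 to -2.74. All 8 placental cathepsins were dim in every line. limma called 1 of them, Ctsq, lower in Nup98-HoxA9 than in HoxA9-Ct ES (adjusted p = 0.00926) although it was dim on all 4 arrays, so no fold is given. Of 9 other syncytiotrophoblast genes, 5 were well above background in all lines and 0 passed in any comparison. Synb, which encodes the second mouse syncytin, was dim throughout.

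Upstream regulators were read from lists of the pathway. Of 16 trophoblast stem cell regulators, 2 passed limma against parental ES, Cdx2 and Sfmbt2, both higher (background 0.781% of all probes). Against HoxA9-Ct ES, 0 passed. Cdx2, the defining trophectoderm factor, was dim in parental ES (-6.49) and HoxA9-Ct ES (-4.15) and above background in clone #1 (-3.72) and clone #9 (-3.10). The clones were together at least 1.82-fold above parental ES (limma log2 difference 3.08, adjusted p = 1.04e-05). Their difference to HoxA9-Ct ES was 0.74 and did not pass, while the dim HoxA9-Ct signal lay 2.34 above the dim parental signal. Eomes, the partner of Cdx2 in the circuit, was at -0.54, 0.13, -0.52 and -0.08 in parental ES, clone #1, clone #9 and HoxA9-Ct ES, and did not move with Cdx2. Sfmbt2, an imprinted Polycomb gene needed for trophoblast, was at -0.58 in parental ES, 1.67 and 1.60 in the clones and 0.46 in HoxA9-Ct ES. The clones passed against parental ES (limma adjusted p = 0.00771) but not against HoxA9-Ct ES (log2 difference 1.175, adjusted p = 0.631). In the Hippo pathway, 0 of 17 genes passed in any comparison. Yap1 was at 5.15 in parental ES, 5.21 in HoxA9-Ct ES, 5.33 in clone #1 and 4.92 in clone #9, and its regulator Amot was highest in clone #9 (0.45 against -0.83 in parental ES).

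**Figure D3:**
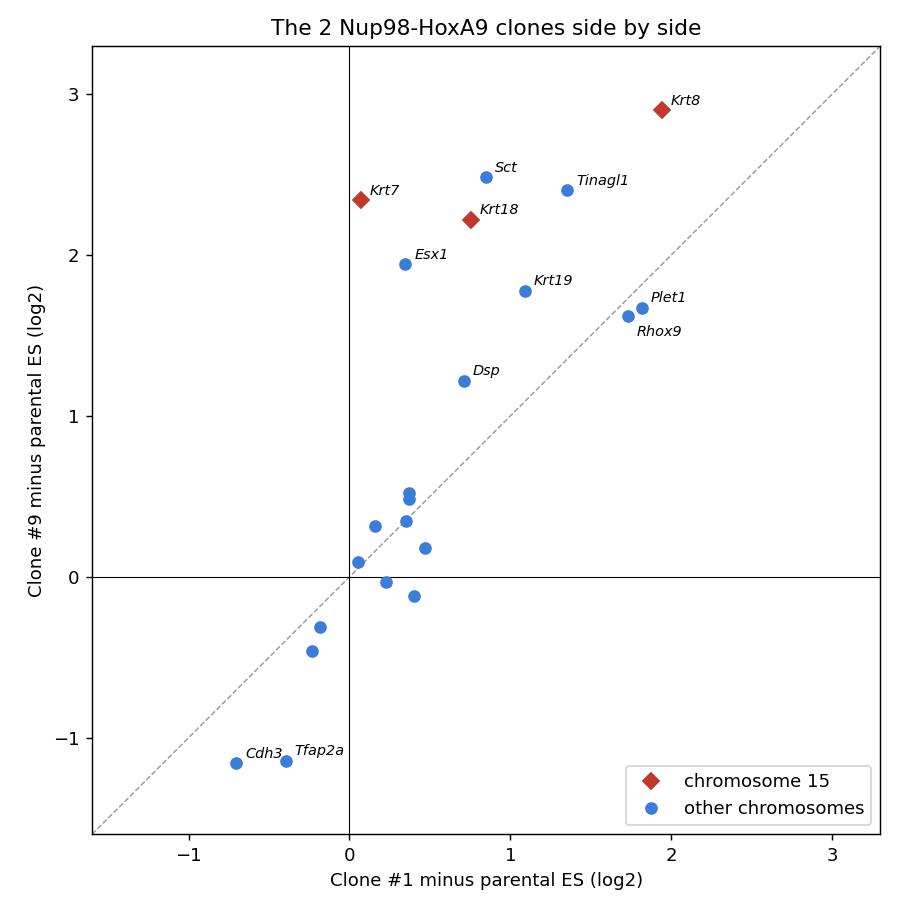
Log2 difference to parental ES in clone #1 (x axis) and clone #9 (y axis) for 22 genes, 3 of them on chromosome 15, each with a measured value in parental ES and both clones; the dashed line marks equal values, and the axes share the parental array. Krt7, Krt18, Sct, Esx1 and Tinagl1 lie far above the line, while Rhox9 and Plet1 lie close to it.

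Several genes differed in level between the clones. Of 28 genes that could be compared, clone #9 was more than 2-fold above clone #1 at 8, Gata3, Hand1, Krt7, Krt18, Esx1, Sct, Syna and Tinagl1 (5.1% of the 13915 named genes compared in the same way), and more than 2-fold below it at 1, Elf5 (0.97%). With normexp the 8 became 3. The 2 chromosome 15 genes well above background in all lines, Krt8 and Krt18, were both higher in clone #9 than in clone #1, with a median of 1.21, while the 19 on other chromosomes had a median of -0.01 and 9 were higher. Values of about the same size in both clones were seen for Rhox9 (clone #9 minus clone #1, -0.11) and Plet1 (-0.14). With 1 array per clone these differences have no test.

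Markers of other cell types were read beside these genes. None of 8 ES cell markers passed in any comparison, and all were well above background in all lines. Pou5f1 was at 6.56 in parental ES, 6.44 in HoxA9-Ct ES, 6.49 in clone #1 and 6.28 in clone #9, and Nanog at -1.61, -1.81, -1.41 and -2.01 in the same order. Of 6 trophectoderm and trophoblast stem cell markers, limma called 2, Cdx2 and Elf5, higher in the clones than in parental ES (background 0.781% of all probes). It called 2, Elf5 and Hand1, higher than in HoxA9-Ct ES (0.673%). Above background were 2 in parental ES and HoxA9-Ct ES (Eomes and Tfap2c), 4 in clone #1 and 5 in clone #9. Clone #9 also had the most named genes above background (13777 of 20284, against 12993 in parental ES). No line held the whole marker set above background.

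Several primitive endoderm markers were higher in the clones, the direction seen for the keratins. Of 10, limma called 3 higher in the clones than in parental ES (background 0.781% of all probes) and 7 higher than in HoxA9-Ct ES (0.673%). In HoxA9-Ct ES against parental ES it called 1 lower (0.189%). There, 6 of 9 genes compared were more than 2-fold lower (0.73% of named genes). The median difference to parental ES over the 6 well above background in all lines was -0.82 for HoxA9-Ct ES, 1.34 for clone #1 and 1.62 for clone #9. Gata6, a founding factor of this lineage, was at -2.00 in parental ES, -3.38 in HoxA9-Ct ES, 0.24 in clone #1 and 0.53 in clone #9 (adjusted p = 0.00275 to parental ES). Sox17 was at -2.80, -0.91 and -0.66 in parental ES and clones #1 and #9, and dim in HoxA9-Ct ES, and Pdgfra was dim in parental and HoxA9-Ct ES and at -1.42 and -1.27 in the clones. The summed linear level of the 10 markers, in units of the 75th percentile, was 175 in parental ES, 165 in HoxA9-Ct ES, 178 in clone #1 and 207 in clone #9. Sparc and Lama1 did not pass in any comparison. The part of primitive endoderm-like expression in the keratin, Dsp and Tinagl1 values was not tested.

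Fibroblast markers differed by clone. Col1a1 was at -3.59, -3.77, -1.66 and -2.97 in parental ES, clone #1, clone #9 and HoxA9-Ct ES, and Col1a2 was dim in parental and HoxA9-Ct ES and at -3.47 and -1.56 in the clones. Over the 6 markers the summed level was 7.81 in parental ES, 10.7 in HoxA9-Ct ES, 9.58 in clone #1 and 17.9 in clone #9. None was called by limma, and Dcn was dim in all lines. The endoderm epithelium markers Afp, Ttr and Apoa1 were dim in every line. The part of either marker list in the clone #9 values was not tested.

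**Figure D4:**
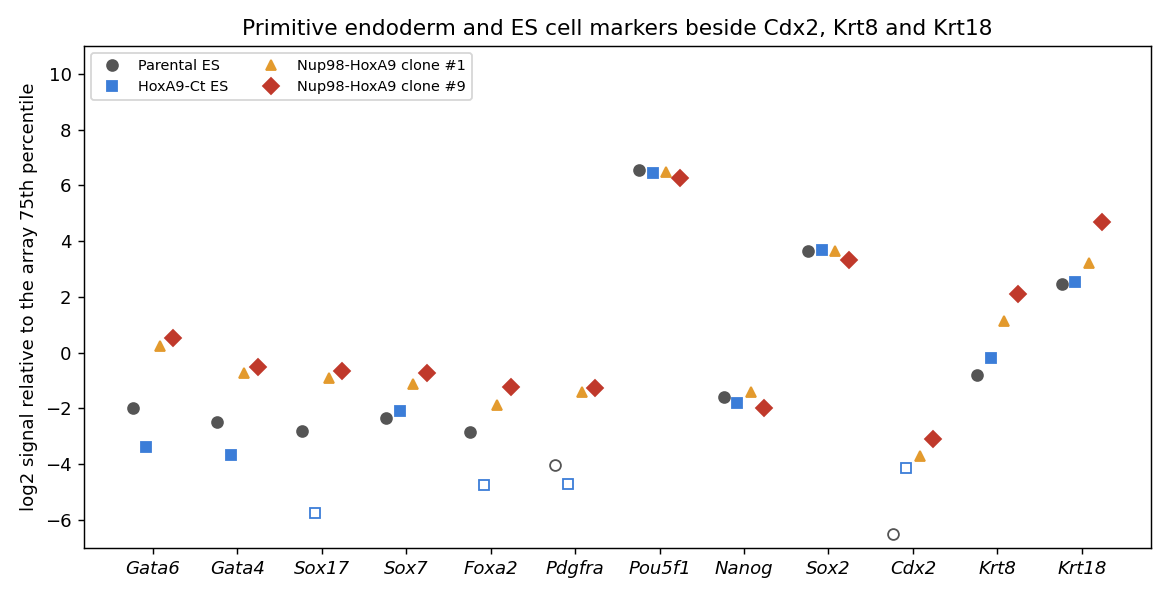
Level of primitive endoderm markers (Gata6 to Pdgfra), ES cell markers (Pou5f1, Nanog, Sox2), Cdx2, Krt8 and Krt18 on each of the 4 arrays. Values are log2 signal relative to the 75th percentile of the array, and open points are not well above background. The endoderm markers are a chosen part of the list of 10, without Dab2, Lama1, Col4a1 and Sparc. The primitive endoderm markers, Krt8 and Krt18 are higher in both clones than in parental and HoxA9-Ct ES, while the ES cell markers lie together. The other 2 lines are not ordered alike: the HoxA9-Ct point lies below the parental point for Gata6, Gata4, Sox17 and Foxa2. It lies above the parental point for Sox7, Krt8 and Krt18, and Pdgfra is dim on both arrays.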

How the data were processed

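Total RNA of 4 mouse ES cell lines was hybridised in 1 colour (Cy3) to Agilent SurePrint G3 Mouse GE 8x60K arrays, 1 array per line, on 1 slide in 1 scan. The authors extracted the images with Agilent Feature Extraction 10.10.1.1 (submitters' processing notes), and the deposited scanner files hold the processed signal intensity of each spot, after background subtraction and spatial detrending, with flags. The deposited series matrix of intensity values differs from the processed signal by 1 constant factor per array and served as an alternative. The flags (deposited values of unit other, 0 or 1) mark spots that are well above background or outliers.

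Processed signals of non-control spots were divided by their 75th percentile on each array, put on the log2 scale and averaged per probe, leaving out outlier spots. Probes were named through RefSeq accessions, which named 26762 of 55681 probes (20284 genes). A gene is read at its probe with the highest mean signal, and 39 probes matched 30 members. A model with 3 groups was fitted to 55562 probes in R 4.3.3 by lmFit and eBayes of limma 3.58.1, which leaves 1 residual degree of freedom, with 0.05 as the threshold on p adjusted by Benjamini-Hochberg. Its prior degrees of freedom were infinite, so the prior SD of 0.45 sets 1 standard error for all probes. Simulated data served to check the fit. Where only 1 side of a comparison was well above background, the fold is a bound against the higher of the dim probe's own signal and the lowest signal called well above background there, without any fold where both sides were dim or the bound is under 1. Counts and figures were made in Python 3.11.15 with pandas 2.3.3, numpy 2.4.6 and matplotlib 3.10.9. Promoters are RefSeq sequences on GRCm38.p6.

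Genes were described singly when limma called them, or when both clones (or HoxA9-Ct ES) lay over 1 log2 unit from the reference in the same direction. Other members are given with the groups they belong to, and the remaining genes named were chosen after their values were seen. The members and the gene lists were chosen with earlier results of these data known. The alternatives were normexp (offset 50, on the median spot signal, since the files carry no mean signal), scaling by each array's median, quantile normalization, a filter and a floor at the background limit, the series matrix, outlier spots kept, probes averaged per gene, trend and robust eBayes, and leaving out each clone.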

Additional observations from a re-analysis of the deposited data

How the results depend on the processing

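No paired analysis was possible because each line has 1 array and no line is matched to another. The differences of the 10 members described singly (Elf5, Krt8, Krt19, Rhox9, Plet1, Tinagl1, Hand1, Krt7, Sct and Syna) kept their direction under the alternatives tried, and alternatives were not run singly for other genes. The number of members called against parental ES (2) became 6 under normexp, 0 under quantile normalization, 0 with the filter on probes above background, 8 with a floor at the background limit and 5 with trend and robust on. Over all probes the calls numbered 781 in the main fit, 785 under normexp, 926 with the floor and 1243 with trend and robust. Under quantile normalization 0 of 55562 probes passed, and with the filter 0 of 30517. A call lost under either setting is therefore not particular to a member. Krt8 was among the members called under normexp, the floor and trend and robust, and Elf5 was not. Against HoxA9-Ct ES the 5 became 0 under quantile normalization, 0 with the filter, 3 with outlier spots kept, 7 with the floor, 6 under normexp and 5 with trend and robust on. Over all probes the main fit made 756 calls there, and these alternatives made 0, 0, 673, 785, 686 and 1284 in the same order. Of the first 5 genes, the floor kept Krt7, Sct and Syna, normexp kept Sct and trend and robust kept Krt7, and each also called Krt8 and Krt19. For HoxA9-Ct ES against parental ES the count stayed at 0 under every alternative tried. The median difference of the members to parental ES, 0.43, was 0.32 under normexp and 0.37 to 0.48 without 1 of the clones. Under normexp, chosen for these counts after seeing the data, members more than 2-fold higher numbered 3 in clone #1, 8 in clone #9, 0 in HoxA9-Ct ES and 3 in clone #9 over clone #1. Under normexp the differences to HoxA9-Ct ES were 0.31 for Elf5, 0.28 for Hand1, 0.64 for Krt7 and 0.52 for Syna, which are dim in that line, and the part of the background in them was not tested further. The number of arrays, 1 for each line, limits the precision of every value.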
